A study of Mus musculus with 6 samples.

Results

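Genes for mitochondrial proteins were few in the deposited table and moved in both directions at their gene bodies. Of 2744 genes in the table, 12 had a symbol of the mitochondrial pattern: Atp5k, Chchd6, Cox6b2, Dnajc13, Dnajc15, Mrpl24, Mrpl52, Mtfr1, Ogdh, Ogdhl, Shmt2 and Slc25a24. The pattern took symbols beginning with those of the mitochondrial ribosome, the respiratory chain and ATP synthase, import and inner membrane factors, carriers of solute family 25, matrix enzymes, mitochondrial DNA factors and fusion or fission genes. It uses symbols alone, but a gene could be a member only if the authors' body comparison had given it a row. In cells with mutant MLLT3, 7 of the 12 were called higher at the body and 5 lower when libraries were scaled by their totals, against 57.4% and 42.1% of all genes tested. With TMM scaling 2 were called higher and 5 lower, against 34.7% and 42.5%. With library totals, Atp5k was the only member of 11 tested at the start of the gene to pass the threshold there. It was higher in the mutant, where 9.81% of all genes tested were called higher and 10.9% lower. Under TMM 3 members were called higher there and 0 lower, beside 490 and 501 of all 2569 genes. Under the authors' size factors, or with any DM library left out, 0 were called.

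The libraries were made by PRO-seq, which lets engaged RNA polymerases add biotin-labelled nucleotides to the RNA they are making and so maps where transcription is under way. They came from cKIT+ bone marrow progenitors of female C57/BL6 mice that were Mllt3 flox/flox and Rosa26Cre+. After sorting, these cells, which carried either MLLT3 WT or MLLT3 K63E K67E (the double mutant, DM) after transduction, grew in methylcellulose with cytokines and 200 nM 4-hydroxytamoxifen for 8 days, and the nuclear run-on lasted 3 min. Both groups therefore carried the recombinase, the floxed Mllt3 alleles and the drug that starts their deletion, and differed in the MLLT3 that was put in. MLLT3 reads acylated histone tails through its YEATS domain, and the series sets the wild-type protein against the mutant. The labels give 3 libraries for each of the 2 groups, all in batch 1, and do not say whether these came from separate animals or cultures, so p-values measure the spread between libraries, which may be technical. The promoter that drives the introduced MLLT3 is not given in the sources used here.

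Mitochondria make most of the ATP of many cells by passing electrons along the respiratory chain and letting protons return through ATP synthase. Nearly all their proteins are encoded in the nucleus, made in the cytosol and imported, while a few chain subunits are encoded by mitochondrial DNA and translated on the mitochondrial ribosome. Blood progenitors are known to raise their use of mitochondria as they leave the stem cell state and mature.

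Library totals ran from 15112853 reads (WT replicate 2) to 22981603 (WT replicate 1). Each gene had a head window of 330 bases, beginning 30 bases upstream of the deposited start, and a body window over the rest of the transcript with its introns. WT replicate 2 stood apart at the heads, with 23.7 head reads per 100 body reads over all genes against 12.7 to 14.95 in the other 5 libraries. WT replicate 1 stood apart at some bodies: its level was more than 3 times that of both other WT libraries in 89 of 2744 genes, against 0 to 3 genes for any other library within its group. Body reads of Kit, the marker in the label cKIT+, were 1031 to 1543 RPM (reads per 1000000 of the library total) in WT and 651 to 667 in DM. The sort came before the 8 days of culture, so these reads do not check it. Mllt3 body reads were 80.6, 77.2 and 95.3 RPM in WT libraries against 58.4, 63.0 and 58.9 in those of DM, and since the deleted stretch is not given in the sources used here, they do not check the deletion.

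Few symbols of the mitochondrial pattern had a row at all. In RefSeq's mouse gene table, 334 protein-coding symbols fitted the pattern and 12 of them (3.59%) had a row, against 2622 of 21900 protein-coding symbols (12%). The mitochondrial ribosome had 2 of 78, ATP synthase 1 of 17, complexes II, III and IV 1 of 47, import and inner membrane factors 3 of 48, family 25 carriers 1 of 47, matrix enzymes 3 of 30 and the fusion and fission genes 1 of 5. None of 49 complex I symbols and none of 13 mitochondrial DNA, transcription and translation factors had one. In the authors' deposited table each row held had a body adjusted p-value under 0.05, so a gene without a row was either not among those called, not measured or not analysed here, and these cannot be told apart. For the same reason the body differences are a description of rows chosen by that comparison.

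**Figure D1:**
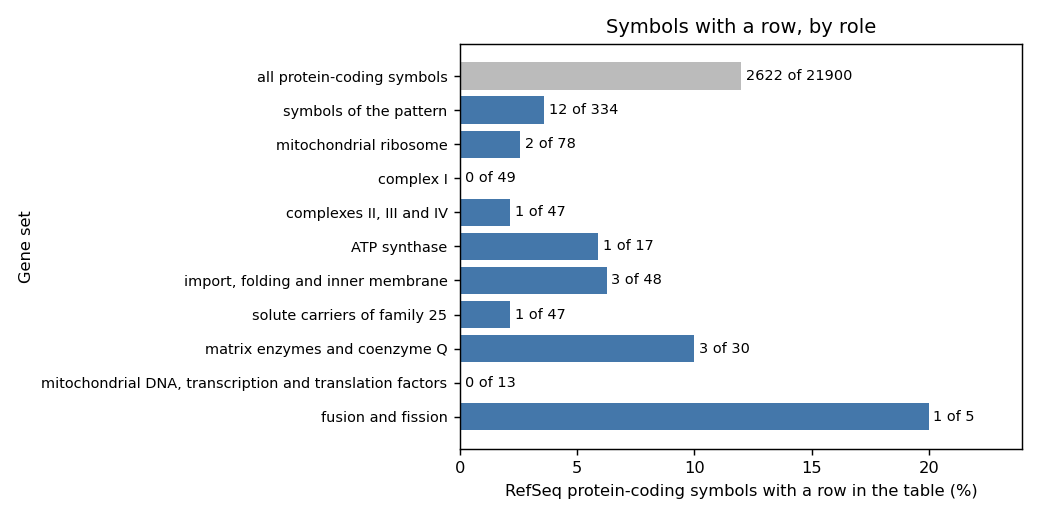
Share of RefSeq protein-coding symbols (x axis, percent) with a row in the table, for each role group of the mitochondrial pattern (blue), beside all protein-coding symbols (grey), with counts at the bars. The whole pattern has 12 of 334 and complex I has 0 of 49; fusion and fission, at 1 of 5, rests on a single gene.

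Promoters in the RefSeq table (GRCm38.p6, 250 bases before to 50 after each start) matched 11 of the 12 members by symbol. They were searched on both strands for short cores of factors known to serve mitochondrial genes. The ETS core CCGGAAG was in 4 of the 11 (36.4%; Atp5k, Dnajc13, Mrpl52 and Shmt2) and in 8.86% of all 32851 promoters, and the NRF1 core GCATGCG was in 2 (18.2%; Atp5k and Shmt2) and in 3.58% of all. The YY1 core ATGGCGG was in 1 (9.09%, Dnajc13; 4.05% of all), the E-box CACGTG in 1 (9.09%, Ogdhl; 7.15% of all) and CCAAT in 3 (27.3%; Chchd6, Cox6b2 and Ogdh; 37.4% of all). Median GC content was 58.7% in the members and 52.7% over all promoters. The members have 1 promoter each, the nearest to the deposited start, while the 32851 are all entries and not only those of genes with a row. The 2 sets are therefore unlike, and no difference between them was tested. Atp5k, whose body reads rose, and Shmt2, whose body reads fell, both held the ETS and the NRF1 core, and are shown with Cox6b2, the member with the deepest fall outside Ogdhl, as the promoters in which the matches can be seen. The sequences run 5′ to 3′ on the gene's strand, and capitals mark every match, on either strand. Atp5k lies at chr5:108434350-108434649 (minus strand), Shmt2 at chr10:127522395-127522694 (minus strand) and Cox6b2 at chr7:4753045-4753344 (minus strand).
Atp5k: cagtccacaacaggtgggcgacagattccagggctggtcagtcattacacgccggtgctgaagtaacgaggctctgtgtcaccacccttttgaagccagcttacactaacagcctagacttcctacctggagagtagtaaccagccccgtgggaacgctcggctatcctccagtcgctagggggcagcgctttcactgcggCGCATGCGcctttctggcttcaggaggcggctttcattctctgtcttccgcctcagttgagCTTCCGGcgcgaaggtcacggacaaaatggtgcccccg
Shmt2: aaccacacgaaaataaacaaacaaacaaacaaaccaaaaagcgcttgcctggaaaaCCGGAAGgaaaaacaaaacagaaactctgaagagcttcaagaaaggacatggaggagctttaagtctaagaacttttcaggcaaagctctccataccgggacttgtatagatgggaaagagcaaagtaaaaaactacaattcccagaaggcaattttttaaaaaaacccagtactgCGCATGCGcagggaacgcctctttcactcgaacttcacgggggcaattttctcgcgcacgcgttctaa
Cox6b2: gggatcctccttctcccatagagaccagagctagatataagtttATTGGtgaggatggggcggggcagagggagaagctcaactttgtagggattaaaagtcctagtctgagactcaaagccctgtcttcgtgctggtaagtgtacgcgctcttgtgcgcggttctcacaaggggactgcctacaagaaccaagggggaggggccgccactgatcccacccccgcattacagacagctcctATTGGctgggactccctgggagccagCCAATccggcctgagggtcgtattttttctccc
In Atp5k the NRF1 core matched on both strands in overlapping letters, from 49 and 48 bases upstream of the RefSeq start, and the ETS core from base 13 of the transcript. In Shmt2 the NRF1 core matched on both strands 18 and 17 bases upstream, and the ETS core 194 bases upstream. In Cox6b2, CCAAT matched 206 and 9 bases upstream and from base 18 of the transcript, with neither other core. RefSeq places the start of Atp5k 49 bases downstream of the deposited start and that of Cox6b2 56 bases upstream of it, while for Shmt2 the starts coincide. The promoters of Dnajc15, Slc25a24 and Mrpl24 held none of the 5 motifs. A match is a description of letters and not of binding.

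Body values below are RPM, scaled by the deposited library total, and fold changes are DM over WT from edgeR's quasi-likelihood test with that scaling, fitted over all genes, with standard errors (SE). The threshold was a Benjamini-Hochberg adjusted p of 0.05 over all genes tested. All 12 members passed it at the body, with edgeR adjusted p-values from 6.35e-04 (Dnajc15) to 0.0312 (Dnajc13), as did 2707 of all 2721 genes tested. Every row held had already been called by the authors on the same body counts, so passing was nearly fixed in advance. Body p-values here and below, of members and of other genes, therefore describe the rows and give no separate support. The 7 higher members stood against a background of 57.4% of 2721 tested genes called higher, and the 5 lower ones against 42.1% called lower. The members' median log2 fold change was 0.32, and that of all tested genes 0.40. In bulk samples such as these, fewer cells of a type and less transcription per cell cannot be told apart.

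The 2 large-subunit proteins of the mitochondrial ribosome with a row moved in opposite directions. Mrpl52 (ENSMUSG00000010406, mm10 chr14:54426909-54429756) had 5.48, 6.82 and 4.72 body RPM in WT libraries against 9.76, 9.74 and 9.81 in those of DM. Every DM library lay above every WT library, and the log2 fold change came to 0.79 (SE 0.203), a 1.73-fold rise. Mrpl24 (ENSMUSG00000019710, chr3:87919506-87923672) had 23.5, 26.1 and 21.4 RPM in WT libraries against 16.1, 16.3 and 17.9 in those of DM. Here the DM libraries all lay below the WT libraries, with a log2 fold change of -0.50 (SE 0.121). Its neighbour Hdgf, which lies 3374 bases upstream on the same strand and encodes a heparin-binding growth factor, also fell at its body, by 0.55 on the log2 scale (SE 0.1004, edgeR adjusted p = 0.00152). Rrnad1 overlaps Mrpl24 on the other strand, and whether the counting used strand is not given in the sources used here. What part of the Mrpl24 value comes from either neighbour was not tested.

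Of the respiratory chain and ATP synthase, 1 gene each had a row, and they too moved apart. Atp5k encodes subunit e of ATP synthase, which takes part in joining the enzyme into dimers, and has a body of only 903 bases. It (ENSMUSG00000050856, chr5:108433244-108434448) had 2.52, 3.97 and 3.72 body RPM in WT libraries against 5.47, 5.54 and 6.71 in those of DM. No libraries of the groups overlapped, and the log2 fold change came to 0.80 (SE 0.276). Cox6b2 encodes the testis-type form of subunit VIb of cytochrome c oxidase, the last complex of the chain. It (ENSMUSG00000051811, chr7:4751792-4753038) had 6.05, 5.43 and 2.97 RPM in WT libraries against 1.23, 2.52 and 1.90 in those of DM. The lowest WT library was close to the highest DM library without reaching it, and the log2 fold change came to -1.35 (SE 0.394). Cox6b2 lies 188 bases from Fam71e2 on the same strand, and its reads were thinner at the head than in the body in WT: the ratio of head to body RPKM (RPM per kilobase of window) was 0.742 ± 0.119 (SD, n = 3), the only member below 1. What part of the Cox6b2 body value starts at the neighbour was not tested.

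The 3 members of the import, folding and inner membrane group all rose under library totals, though Dnajc13 came to -0.014 under DESeq2's scaling. Dnajc15 is a J-domain protein of the inner membrane that acts with the import motor. It (ENSMUSG00000022013, chr14:77820681-77874926) had 13.2, 10.5 and 13.0 body RPM in WT libraries against 23.9, 21.1 and 22.2 in those of DM. The groups lay far apart and the rise, 0.87 on the log2 scale (SE 0.133) or 1.83-fold, was the largest of the 12. Chchd6 is a subunit of the MICOS complex, which shapes the cristae. It (ENSMUSG00000030086, chr6:89383146-89595652) had 19.8, 16.7 and 16.1 RPM in WT libraries against 24.8, 21.0 and 29.0 in those of DM, a log2 fold change of 0.505 (SE 0.1495), with the lowest DM library just above the highest WT library. At 212205 bases its body is the longest of the members. Dnajc13 entered through its symbol only, since its product works on endosomes and is not a mitochondrial protein. It (ENSMUSG00000032560, chr9:104151282-104262930) had 87.7, 68.4 and 91.8 RPM in WT libraries against 105, 100.02 and 104 in those of DM, a log2 fold change of 0.32 (SE 0.123).

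Slc25a24, the calcium-regulated carrier that exchanges ATP-Mg for phosphate across the inner membrane, rose. It (ENSMUSG00000040322, chr3:109123149-109168457) had 17.8, 14.0 and 20.6 body RPM in WT libraries against 31.1, 30.5 and 32.7 in those of DM. The DM libraries lay close together and above all WT libraries, with a log2 fold change of 0.84 (SE 0.145), a 1.79-fold rise. Mtfr1, a regulator of mitochondrial fission, fell. It (ENSMUSG00000027601, chr3:19188110-19220817) had 27.8, 22.5 and 22.9 RPM in WT libraries against 20.2, 17.2 and 15.5 in those of DM. The groups did not overlap, and the log2 fold change came to -0.47 (SE 0.142).

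Among matrix enzymes, 1 rose under library totals (Ogdh, which came to -0.010 under DESeq2's scaling) and 2 fell. Ogdh encodes the E1 subunit of the 2-oxoglutarate dehydrogenase complex of the tricarboxylic acid cycle. It (ENSMUSG00000020456, chr11:6291633-6356642) had 72.8, 67.8 and 81.7 body RPM in WT libraries against 90.9, 93.6 and 93.4 in those of DM. All DM libraries lay above the WT libraries, with a log2 fold change of 0.32 (SE 0.101). Shmt2, which turns serine into glycine in the matrix and feeds one-carbon units to folate, fell. It (ENSMUSG00000025403, chr10:127517123-127522444) had 8.31, 7.08 and 5.29 RPM in WT libraries against 3.50, 4.11 and 3.70 in those of DM, a log2 fold change of -0.87 (SE 0.257), with no overlap of the groups.

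The call on Ogdhl, the paralog of Ogdh, rested on a single library. It (ENSMUSG00000021913, chr14:32322019-32348151) had 197, 22 and 20 body reads in WT libraries against 21, 20 and 13 in those of DM, which is 8.57, 1.46 and 0.874 RPM against 0.919, 0.989 and 0.651. WT replicate 1 held 82.4% of the 239 WT reads, and the other WT libraries overlapped the DM libraries. With every library the log2 fold change came to -2.09 (SE 0.796; edgeR adjusted p = 0.0290), and it came to -0.40 (edgeR adjusted p = 0.351) without WT replicate 1. Ogdhl fell short of the minimum mean of 50 reads set for naming genes and is given because every member is described.

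**Figure D2:**
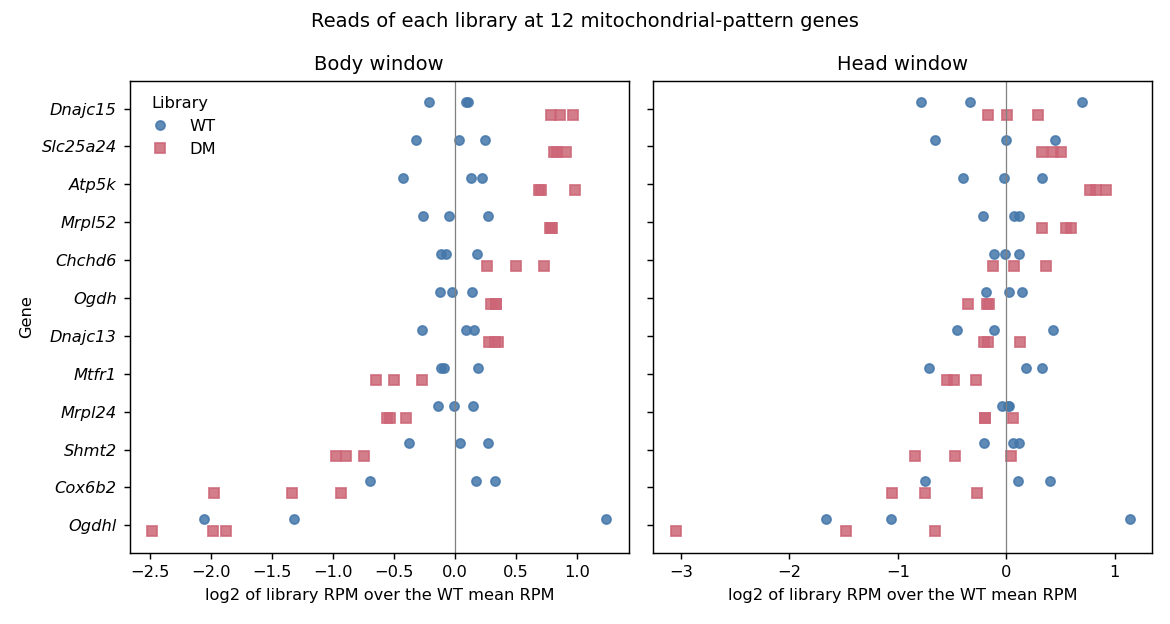
Reads of each library at the 12 genes, as log2 of the library's RPM over the WT mean (x axis), for the body (left) and the head (right); blue circles are WT libraries and red squares DM libraries. At the body the groups are apart in 11 genes and overlap in Ogdhl; at the head they are apart in Atp5k and Mrpl52.

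At the body, then, the groups did not overlap in RPM for 7 members higher in DM and 4 lower, against 56.9% and 38.2% of all 2744 genes. The median body was longer in the higher members, at 53944 bases (903 to 212205) against 5020 (945 to 32406) for the lower ones. The ranges overlap, and the shortest body of all, that of Atp5k, belongs to a higher member. The same split was not made over all genes, so it is not shown to be particular to the members. Over all 12 the median body was 29119 bases and over all genes 33547, and the median body RPKM was 0.948 and 1.01. Other RefSeq genes also overlap Atp5k, Chchd6, Dnajc13, Ogdh and Shmt2, and their part in the counts was not tested. Summed over the members, body reads were 294, 251 and 285 RPM in WT libraries against 333, 323 and 337 in those of DM. Every DM library was higher, by 54.6 RPM on average (two-sided exact permutation p = 0.10, the smallest that 3 libraries against 3 allow). Since the rows summed were chosen by the body comparison of these groups, that p-value is a description only. The bodies of all genes in the table also took more of each DM library, at 19.5% ± 0.484 (SD, n = 3) against 17.1% ± 1.25 (SD, n = 3) in WT. Ogdh and Dnajc13 made up most of the members' sum, although the product of Dnajc13 is not a mitochondrial protein. Dnajc13 alone had a mean of 82.6 RPM in WT and 103 in DM. The members' difference turned to -6.77 RPM under TMM scaling.

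At the heads, whose reads did not serve to select rows although a gene's head and body can move together, edgeR called 1 of 11 tested members higher and 0 lower, and 1, the same gene, had an unadjusted p under 0.05, as had 960 of all 2569 genes. Over all 2569 genes tested there, 9.81% were called higher and 10.9% lower. The called gene was Atp5k, with 3.52, 4.57 and 5.81 head RPM in WT libraries against 7.92, 8.21 and 8.76 in those of DM. Every DM library was above every WT library, and the log2 fold change came to 0.84 (SE 0.266, edgeR adjusted p = 0.0365), about as large as at its body. The call was lost under the authors' size factors (edgeR adjusted p = 0.0627) and without DM replicate 1 (0.122), DM replicate 2 (0.111) or DM replicate 3 (0.162) in edgeR. The log2 fold change stayed between 0.67 and 1.04 over all settings. Mrpl52 heads also did not overlap, at 5.18, 6.48 and 6.29 RPM in WT libraries against 7.53, 9.05 and 8.76 in those of DM, but the log2 fold change of 0.50 (SE 0.250) missed the threshold (edgeR adjusted p = 0.159). These were the 2 members whose heads were higher without overlap, against 17.7% of all genes, and there were 0 with lower ones, against 23.3%. Under TMM scaling the heads of Mrpl52 and Slc25a24 were called higher too (edgeR adjusted p = 0.0285 and 0.0341). In that fit 490 of all 2569 genes were called higher and 501 lower.

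For Slc25a24 the heads held 3.22, 6.95 and 5.07 RPM in WT libraries against 6.39, 7.22 and 6.86 in those of DM, with a log2 fold change of 0.44 (SE 0.293). For Dnajc15, the member with the largest body rise, they held 1.91, 5.36 and 2.62 RPM in WT libraries against 2.93, 3.31 and 4.05 in those of DM, and the log2 fold change came to 0.08 (SE 0.352). WT replicate 2 was the highest WT library at both heads, among the DM libraries for Slc25a24 and above all of them for Dnajc15. Without it the Dnajc15 values were 0.59 at the head (SE 0.273, edgeR adjusted p = 0.0980) and 0.78 at the body (SE 0.117). Among the genes whose bodies fell, no head passed the threshold with all libraries. Cox6b2 heads were at 1.35, 1.65 and 0.743 RPM in WT libraries against 0.744, 1.04 and 0.601 in those of DM, where WT replicate 3 lay among the DM libraries, with a log2 fold change of -0.63 (SE 0.404). Mtfr1 heads were at 5.48, 11.3 and 10.2 RPM in WT libraries against 6.17, 7.42 and 6.46 in those of DM, and only without WT replicate 1 were they called lower (log2 fold change -0.69, edgeR adjusted p = 0.0248). Mrpl24 heads were nearly level, at 10.5, 10.9 and 10.97 RPM in WT libraries against 9.41, 9.40 and 11.3 in those of DM, although its body fell. Shmt2 (log2 fold change -0.38), Ogdh (-0.22), Dnajc13 (-0.07) and Chchd6 (0.13) also missed the threshold, with overlapping libraries. Ogdhl, with 21, 3 and 3 head reads in WT libraries against 6, 3 and 1 in those of DM, had too few to be tested. The median head log2 fold change was -0.07 for the 11 members and -0.11 for all genes tested. Without WT replicate 2 these were 0.18 and 0.11, and 2 members were called higher, Atp5k and Slc25a24 (edgeR adjusted p = 0.0312), beside 583 of all 2607 genes tested.

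**Figure D3:**
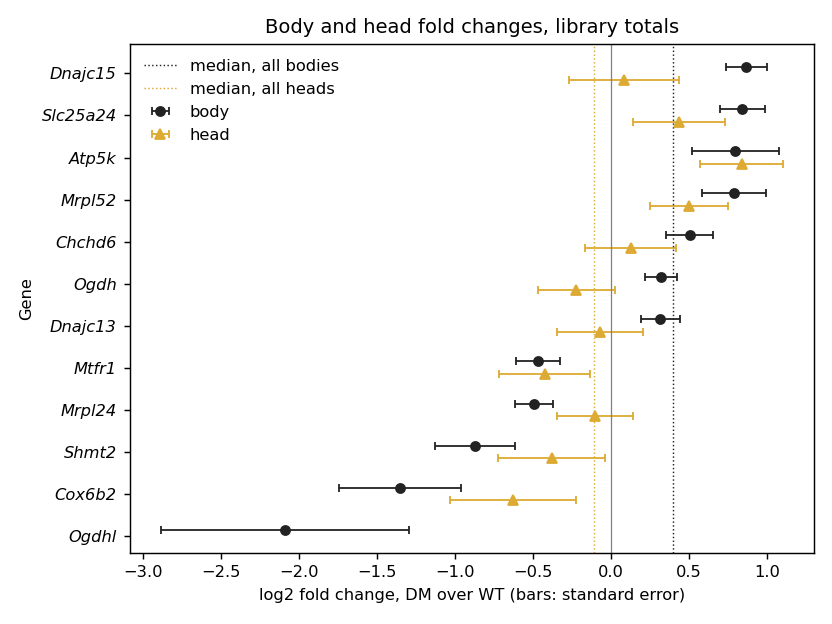
Log2 fold change, DM over WT, at the body (black circles) and the head (yellow triangles) of each gene, with standard errors; dotted lines mark the medians of all tested bodies (0.40) and heads (-0.11). Atp5k has like values in both windows (0.80 and 0.84), while Dnajc15 has 0.87 at the body and 0.08 at the head (0.78 and 0.59 without WT replicate 2); Ogdhl has no head value.

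The ratio of head to body reads, which compares polymerases near the start with those further along, was tested by the interaction of window and group with the library as a block, so that a factor shared by both windows of a library does not enter. edgeR called 0 of 11 members (DESeq2 also 0), and 0 had an unadjusted p under 0.05 in this edgeR fit, against 0.0779% of 2567 genes called and 392 with an unadjusted p under 0.05. The smallest p among the members was that of Ogdh. It had 12.3, 16.7 and 12.7 reads at the head for each 100 in the body in WT libraries against 10.1, 9.67 and 8.57 in those of DM. The groups did not overlap, and the log2 change of the ratio was -0.54 (SE 0.256, edgeR unadjusted p = 0.0528, adjusted p = 0.332). Cox6b2 went the other way, with 22.3, 30.5 and 25.0 reads at the head for each 100 in the body in WT libraries against 60.7, 41.2 and 31.6 in those of DM, a log2 change of 0.75 (SE 0.416, edgeR adjusted p = 0.383) from few head reads. Mrpl24 had 44.6, 41.8 and 51.2 in WT libraries against 58.4, 57.6 and 63.1 in those of DM (log2 change 0.38, SE 0.240). The other mitoribosomal gene, Mrpl52, had 94.4, 95.1 and 133 in WT libraries against 77.1, 92.9 and 89.3 in those of DM (log2 change -0.30, SE 0.275, edgeR adjusted p = 0.579; 0.044 with separate TMM factors). In these 4 genes the libraries did not overlap, 2 higher in DM against 4.01% of all genes and 2 lower against 21.2%. Dnajc15 had a log2 change of -0.71 (SE 0.403), where WT replicate 2 alone, at 50.9 head reads per 100 body reads, was far above the 14.5 and 20.2 of the other WT libraries; without it the change was -0.18 (SE 0.274). The median log2 change of the ratio was -0.30 in the members and -0.26 over all genes. These medians were 0.0051 and -0.075 without WT replicate 2, and 0.044 and 0.097 when head and body were given separate TMM factors, so they set no direction.

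Directions at the body depended on library scaling for the smallest rises. TMM scaling, computed on a table of called rows, moved the median of all bodies by 0.29 on the log2 scale, so that 44.9% of called genes were higher in place of 57.7%. Under TMM, 2 members were called higher, Dnajc15 and Slc25a24, against 34.7% of all genes, and 5 lower, against 42.5%. Mrpl52 (log2 fold change 0.49, edgeR adjusted p = 0.0602), Atp5k (0.51, 0.105) and Chchd6 (0.21, 0.239) kept their direction below the threshold. Ogdh and Dnajc13 lay at 0.03 under TMM and just below 0 under DESeq2 (-0.010 and -0.014). The falls of Mtfr1, Mrpl24, Shmt2 and Cox6b2 were called under all 4 scalings. Leaving out a DM library took calls away among the members and over the whole table. Without DM replicate 1, 4 members were called higher and 2 lower, beside 1305 and 755 of all 2738 genes tested. Without DM replicate 2 the counts were 5 and 4, beside 1488 and 934 of 2739, and without DM replicate 3 they were 3 and 3, beside 1334 and 707 of 2738. Without WT replicate 1 they were 7 and 4, beside 1551 and 1009 of 2722, and 7 and 5 without WT replicate 2 (1524 and 1128 of 2722) or WT replicate 3 (1555 and 1063 of 2739).

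**Figure D4:**
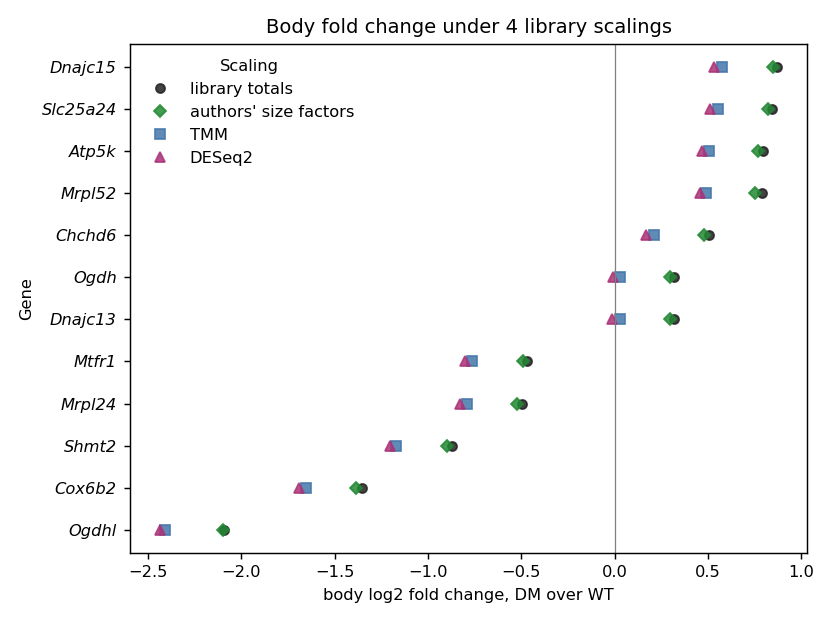
Body log2 fold change, DM over WT, of the 12 genes under 4 library scalings: deposited library totals (black circles), the authors' size factors (green diamonds), TMM (blue squares) and DESeq2 (purple triangles). The last 2 shift every gene downward by a like amount, which brings Ogdh and Dnajc13 to about 0.

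Other nuclear genes of mitochondrial function were taken from 5 lists of 194 genes outside the symbol pattern, of which 25 had a tested body row: 14 were called higher and 11 lower, against 57.4% and 42.1% of all genes. Under TMM 6 were called higher and 11 lower, against 34.7% and 42.5%. At the heads 1 of 24 was called higher and 1 lower, against 9.81% and 10.9%. With library totals the body counts stood near the shares of the whole table, while under TMM the share called higher was below that of all genes. Per list the body counts are given for library totals, with TMM in brackets. Of the oxidation and amino acid enzymes, 3 of 8 were higher and 5 lower with a median log2 fold change of -0.415 (TMM 1 and 5, -0.708). Cpt1a, which admits long-chain fatty acids for oxidation, had the largest change with enough reads (log2 fold change 0.90, SE 0.130, edgeR adjusted p = 4.82e-04). Of the dynamics, quality control and import genes, 4 of 5 were higher and 1 lower with a median of 0.38 (TMM 2 and 1, 0.09), led by Mcub, the inhibitory subunit of the calcium uniporter (1.35, SE 0.172, edgeR adjusted p = 2.75e-04), which was also called at its head (1.25, edgeR adjusted p = 0.00895). Of the respiratory, heme and iron-sulfur genes, 3 of 4 were higher with a median of 0.57 (TMM 2 of 4, 0.28), led by Alas1, the first enzyme of heme synthesis (1.14, SE 0.169, edgeR adjusted p = 5.71e-04), and 1 was lower. Vars2, the mitochondrial valyl-tRNA synthetase, was the only translation factor with a row and was lower (-0.51, SE 0.159, edgeR adjusted p = 0.0144). Of the regulators, 4 of 7 were higher and 3 lower with a median of 0.30 (TMM 1 and 3, 0.0056), with the largest change at Mycn, a MYC family factor (-1.25, SE 0.186, edgeR adjusted p = 5.65e-04), also called lower at its head (-1.39, edgeR adjusted p = 0.00557).

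Markers of blood cell types were summed and counted too. A marker, like a member, had a row only if the authors had called it at the body, so each had to differ there. Summed body reads of the 8 of 12 progenitor markers with a row were 2850 to 3654 RPM in WT and 1755 to 1828 in DM, and 6 of 7 tested at the body were lower and 1, Procr, higher. Of 14 mature myeloid markers, 9 had a row, summing to 306 to 375 RPM in WT and 713 to 799 in DM, and 8 were higher and 1, Ctsg, lower. The 4 of 12 erythroid and megakaryocyte markers summed to 197 to 223 RPM in WT and 108 to 125 in DM, and the 5 of 9 mast and basophil markers to 1542 to 2750 and 1170 to 1253, with all 9 lower. Of all 2721 genes tested at the body, 57.4% were called higher and 42.1% lower. Of 11 lymphoid markers only Il7r had a row, at 18.8 to 28.5 RPM in WT and 56.0 to 71.5 in DM. Among genes with a mean of at least 50 body counts, the largest body log2 fold changes of these lists were those of Meis1 (-1.15), Lyz2 (2.08), Car2 (-1.135), Gzmb (-1.08) and Il7r (1.54). Summed over the 6 libraries, none of the markers with a row was at 0. Their part in the differences at the mitochondrial genes was not tested.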

How the data were processed

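PRO-seq reads of 6 libraries (3 WT, 3 DM) were analysed from 1 table. Raw counts per head and body window and library totals (a deposited value of other kind, whose counting is not stated) were deposited by the authors. RPKM values per library were deposited by the authors too and are used as given. For the body comparison, the mean signal (body counts over size factors), from which those size factors were solved, log2 fold changes and adjusted p-values were deposited by the authors. Per the submitters' processing notes, builds mm10 and dm3 and cutadapt, Trimmomatic, Bowtie 1.1.2, MACS2 and bedtools 2.28 were used; their roles, the use of strand and of multiply mapped reads are not given in the sources used here.

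Each gene was represented by its row of highest mean body count (278 of 3022 rows left out). Counts were tested with edgeR 4.0.16 (limma 3.58.1, R 4.3.3; filterByExpr, minimum count 10, total 15), scaled by the deposited library totals, since TMM takes most rows as unchanged and every row held was called by the authors. DESeq2 1.42.0, TMM, the authors' size factors, other filters and left-out libraries were alternatives. Fold changes from counts have no added pseudocount beyond edgeR's prior.

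Members, roles, lists and motifs were chosen with earlier results of these data known. By rule the text names, per role, up to 3 members with the largest body change among those with a mean of at least 50 body counts and no overlap, the member with the highest body RPKM and any member called at the head or in the ratio, and per other list the gene with the largest body change at that mean. With 12 members this leaves out only Ogdhl, which is described too. Promoters were taken by rule for the 3 largest rises and falls, and the 3 without a motif match are not printed. Hdgf, Mllt3, Kit, Procr and Ctsg were named after their values were seen.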

Additional observations from a re-analysis of the deposited data

How the results depend on the processing

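Fold changes of single members kept direction and side of the threshold in 129 of 155 body and 123 of 140 head values under the alternatives other than the stricter threshold. The members called higher at the body were 3 at an adjusted p of 0.01, 2 under TMM and 2 in DESeq2, and those called lower were 1 at 0.01. Leaving out 1 library gave 3 to 7 and 2 to 5. Over all 2721 genes tested, 1219 were higher and 551 lower at 0.01, and 863 and 1158 in DESeq2. The members' median body log2 fold change was 0.030 under TMM and -0.012 in DESeq2, and 0.23 to 0.40 with 1 library left out. At the head, the members called higher were 0 at 0.01, 3 under TMM, 0 under the authors' size factors and 3 in DESeq2. Under TMM and in DESeq2 these were Atp5k, Mrpl52 and Slc25a24, with 0 lower. Of all 2569 genes tested, 490 were called higher and 501 lower under TMM, and 465 and 468 in DESeq2. The authors' size factors gave 199 and 239. With 1 library left out, 0 to 2 members were called higher and 0 to 1 lower, with a median log2 fold change of -0.19 to 0.18. The median change of the ratio was 0.044 with separate TMM factors for head and body, and -0.40 to 0.0051 with 1 library left out, the upper value without WT replicate 2. The summed body level differed by -6.77 RPM under TMM. Directions reversed in DESeq2 for the bodies of Dnajc13 (-0.014) and Ogdh (-0.010), and for the head of Dnajc13 under TMM (0.025) and DESeq2 (0.030). With 1 library left out, head log2 fold changes ran from -0.020 to 0.23 for Chchd6, -0.25 to 0.20 for Dnajc13 and -0.19 to 0.59 for Dnajc15. The cause of these changes was not tested, beyond the shift of all genes by the scaling and the fewer libraries. Deviations of same-numbered libraries correlated by -0.0806, -0.198 and 0.352 (mean 0.0245). They were not compared with those of unlike-numbered libraries, so they do not decide whether the numbers pair the libraries. With a replicate block, 7 members were called higher and 5 lower at the body, 1 and 0 at the head, and 0 in the ratio. Their median log2 values were 0.33, -0.035 and -0.30. Over all genes the block took the calls from 2707 to 2635 at the body, from 533 to 793 at the head and from 2 to 35 in the ratio.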
